A study of Mus musculus with 5 samples.

Results

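Ketone body metabolism was examined through 5 genes of epididymal adipocytes: Bdh1, Bdh2, Oxct1, Acat1 and Slc16a1. They were taken from the transcript table by gene symbol, which gave 7 RefSeq transcripts of 36779, and summed per gene identifier to 5 genes of 24531. The RNA was from primary adipocytes of the epididymal fat of C57BL/6N mice fed a high-fat diet for 12 weeks. The Prmt1 FKO group (2 libraries) came from mice with an adipocyte-specific knockout of Prmt1, the main enzyme of asymmetric arginine dimethylation. The Prmt1 f/f group (3 libraries, genotype labelled WT) carried the floxed gene without the knockout. Strain, diet and fat depot were common to both groups. The sources used here do not give the Cre driver, the age of the mice or whether each library was 1 animal. The p-values therefore describe spread from library to library, which may be technical.

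Ketone bodies are small acids made mostly in liver mitochondria from the acetyl-CoA of fatty acid oxidation, and burned in other tissues. A consuming cell takes up β-hydroxybutyrate and acetoacetate through monocarboxylate transporters such as Slc16a1 (MCT1). Bdh1 then oxidises β-hydroxybutyrate to acetoacetate in mitochondria, Oxct1 (SCOT) activates acetoacetate with CoA, and the thiolase Acat1 splits the product into acetyl-CoA for the TCA cycle. Adipocytes are known to use acetoacetate also as a carbon source for lipid synthesis.

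Estimated counts summed to 45665542 and 49981062 in the FKO libraries and to between 43580154 and 57016997 in the f/f libraries. Prmt1 was at 21.0 and 19.3 CPM (counts per 1e6 counts, with TMM scaling between libraries) in FKO and at 34.1, 29.4 and 32.3 CPM in f/f. Which exons were deleted is not stated in those sources, and other cells keep the gene, so this checks the labels only in part. Adipocyte markers were abundant in every library, with 10 genes summing to between 68043 and 74778 CPM in FKO and between 45245 and 50736 CPM in f/f. Of these 10, Cidec and Lpl rose and the other 8 did not pass the test. The median log2 fold change of all 10 was 0.45. Markers of other cells were present in both groups and several were lower in FKO. The shares called over all genes tested were 11.9% higher and 13.4% lower. Of 10 macrophage markers 9 fell (sum 419 to 531 CPM in FKO and 965 to 1724 CPM in f/f), of 9 mesothelial markers all 9 fell (17.0 to 26.8 CPM in FKO and 56.6 to 117.9 CPM in f/f), and of 10 progenitor and fibroblast markers 4 fell (346 to 367 CPM in FKO and 644 to 911 CPM in f/f). Of 8 endothelial markers 0 were called, with sums of 468 to 526 CPM in FKO and 465 to 730.4 CPM in f/f, and 2 of 5 mural and 1 of 4 tested lymphocyte markers fell. None of the macrophage, mesothelial or fibroblast markers was at 0 in a whole group, whereas the epididymal epithelial markers Lcn5 and Lcn8 had 0 counts in all libraries. Of the other 3 of that list, Rnase10 had 33 and 29 counts in FKO and 6, 9 and 6 in f/f, Crisp1 had 0 counts in both FKO libraries and 283, 21 and 63 in f/f, and Rnase9 was too low to test. Rnase10 and Crisp1 each passed the filter on low counts only through the group where they are high, so their calls are not read as support. The list summed to between 0.689 and 0.733 CPM in FKO and between 0.510 and 6.54 CPM in f/f. In bulk RNA, fewer cells of a type and less RNA per cell cannot be told apart. The part of these cells in the differences between groups was not tested.

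The members fell into an abundant trio and a nearly silent pair. On the FPKM scale, which is per transcript length, Oxct1 was the highest member in every library (258 and 267 FKO, against 161, 155 and 144 f/f). Acat1 came next, at 133 and 145 FPKM in FKO and 105, 86.0 and 81.4 FPKM in f/f, and Slc16a1 followed at 17.2 and 32.8 FPKM in FKO and 18.1, 12.3 and 20.1 FPKM in f/f. Neighbours in this order did not overlap within either group. Oxct1 exceeded 98.4% of the genes with an FPKM above 0 in both FKO libraries, and between 96.9% and 97.4% of them in the f/f libraries. Bdh2 and Bdh1, which act on β-hydroxybutyrate, were at the bottom. In f/f libraries Bdh2 held 0.503 to 0.705 FPKM and Bdh1 0.00991 to 0.0435 FPKM, without overlap. In FKO libraries the pair overlapped, at 0.0674 and 0 FPKM for Bdh2 and 0 and 0.0416 FPKM for Bdh1.

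**Figure D1:**
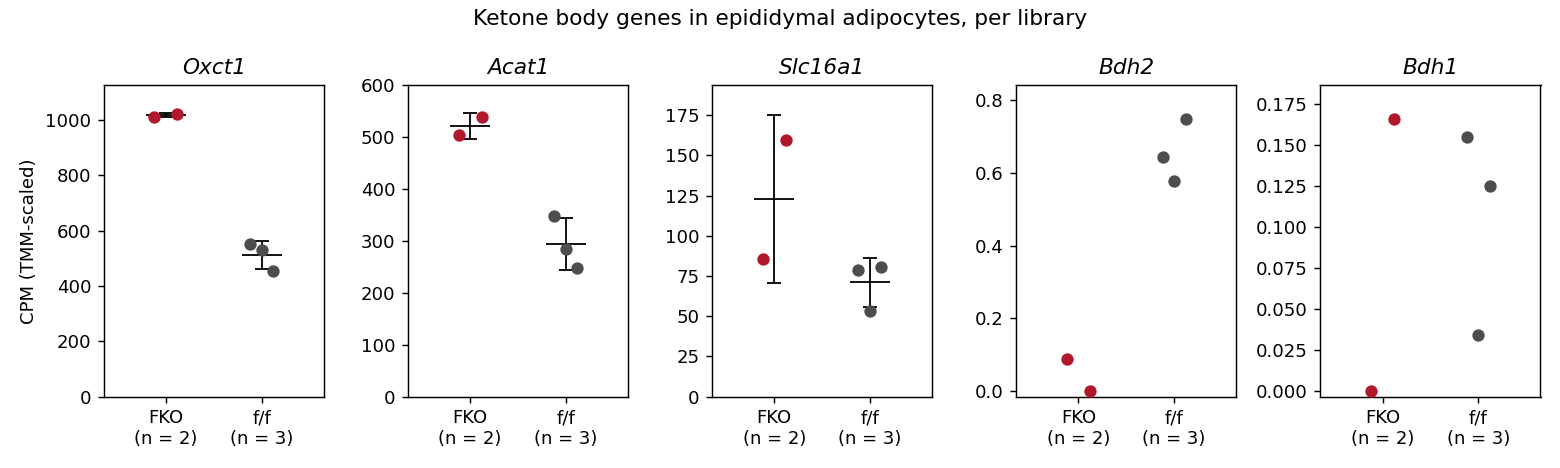
CPM (TMM scaled, linear axes of different range) of each member in the 2 FKO libraries (red) and 3 f/f libraries (grey), with mean and SD as bars except for Bdh2 and Bdh1, whose counts are low. Oxct1 and Acat1 sit higher in both FKO libraries than in any f/f library, Slc16a1 is high in 1 FKO library, and Bdh2 and Bdh1 stay below 1 CPM throughout.

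RefSeq promoter windows on GRCm38.p6, from 250 bases before to 50 after an annotated start, exist for 4 of the 5 members in the sequence table, and 3 are shown: that of the most abundant member, that of the transporter, and that of the member with lower counts in FKO. They lie at chr15:4026178-4026477 (Oxct1), chr3:104638414-104638713 (Slc16a1) and chr3:135280971-135281270 (Bdh2), all on the plus strand and read 5′ to 3′. Capitals mark matches to any of 4 motifs searched on both strands: the E-box CACGTG, the CCAAT box, the estrogen-related receptor (ERR) element TCAAGGTCA and the DR1 repeat (the letters AGGTCA repeated after a gap of 1 base) read by PPAR receptors.
Oxct1: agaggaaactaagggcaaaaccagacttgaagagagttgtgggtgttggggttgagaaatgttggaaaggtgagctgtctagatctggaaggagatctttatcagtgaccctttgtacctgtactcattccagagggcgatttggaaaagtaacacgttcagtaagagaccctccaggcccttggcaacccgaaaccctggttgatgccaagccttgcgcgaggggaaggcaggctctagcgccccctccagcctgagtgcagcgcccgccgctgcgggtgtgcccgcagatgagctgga
Slc16a1: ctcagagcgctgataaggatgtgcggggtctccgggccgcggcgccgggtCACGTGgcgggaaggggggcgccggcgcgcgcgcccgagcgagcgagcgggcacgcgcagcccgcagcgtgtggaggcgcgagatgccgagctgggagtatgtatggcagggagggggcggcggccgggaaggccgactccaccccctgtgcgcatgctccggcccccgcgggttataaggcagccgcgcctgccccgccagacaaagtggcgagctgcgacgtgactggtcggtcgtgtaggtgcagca
Bdh2: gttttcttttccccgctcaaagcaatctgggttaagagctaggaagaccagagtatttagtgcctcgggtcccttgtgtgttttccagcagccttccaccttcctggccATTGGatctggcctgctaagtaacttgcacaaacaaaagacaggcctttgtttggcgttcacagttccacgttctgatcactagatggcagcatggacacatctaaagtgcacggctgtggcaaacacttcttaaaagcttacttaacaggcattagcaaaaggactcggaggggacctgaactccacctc
The Slc16a1 window holds an E-box that begins 200 bases before the start, and the Bdh2 window holds a CCAAT box on the minus strand. No searched motif occurs in the Oxct1 window. Of 32851 promoter windows in the table, 7.15% hold the E-box, 37.4% the CCAAT box, 0.423% the ERR element and 0.0396% the DR1 repeat. The windows differ in base composition, with 55.3% G and C for Oxct1, 73.7% for Slc16a1 and 48.7% for Bdh2, against a median of 52.7% over all windows. A match is a description of letters only, and binding was not measured.

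Both mitochondrial enzymes of acetoacetate use rose in FKO adipocytes. Oxct1 (gene 67041, mm10 chromosome 15, 4026428 to 4155344, plus strand, 17 exons in GENCODE M21) is the CoA transferase that commits acetoacetate to oxidation. It was at 1012 and 1022 CPM in the FKO libraries, against 550.4, 531 and 455 CPM in the f/f libraries, so the groups lay far apart and the FKO pair was nearly equal. The means were 1017 ± 7.53 CPM (SD, n = 2) in FKO and 512 ± 50.3 CPM (SD, n = 3) in f/f, a 1.99-fold rise (log2 fold change 0.99, SE 0.16, edgeR quasi-likelihood test, adjusted p = 0.00662). A gene of the table that overlaps Oxct1, BC037032, had only 27 counts in each FKO library and 38 to 59 in f/f, beside at least 24823 counts of Oxct1.

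Acat1 (gene 110446, chromosome 9, 53580522 to 53610350, minus strand, 12 exons) encodes the mitochondrial thiolase that ends ketone body use and also the isoleucine breakdown pathway. Its levels were 504 and 539 CPM in FKO, against 347, 285 and 249 CPM in f/f, again without overlap. The mean was 521 ± 25.1 CPM in FKO (SD, n = 2) and 294 ± 49.95 CPM in f/f (SD, n = 3), and Acat1 rose 1.78-fold (log2 fold change 0.83, SE 0.18, edgeR adjusted p = 0.0172). Relative to the all-gene median of -0.047, the log2 fold changes of Oxct1 and Acat1 were 1.04 and 0.88. Without FKO replicate 1 or 2, which leaves 1 FKO library that is assumed to vary like the f/f group, neither passed, at edgeR adjusted p = 0.057 and 0.0553 for Oxct1 and 0.0966 and 0.115 for Acat1, while the log2 fold changes stayed between 0.98 and 1.00 for Oxct1 and between 0.78 and 0.88 for Acat1.

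Of the 4 members that passed the filter on low counts, 2 were called higher and 1 lower. The lower one was Bdh2, which passed that filter only through its f/f libraries. Among all 14492 genes tested, 25.4% were called, 11.9% as higher and 13.4% as lower. On the CPM scale the groups did not overlap for 3 members that were higher and 1 that was lower in FKO, while 59.0% of all tested genes did not overlap, made up of 28.6% of tested genes that were higher and 30.5% that were lower. The split of calls depended on scaling. With TMM factors 47.1% of called genes were higher. That share was 35.0% under upper-quartile scaling, 29.4% on the log2(FPKM + 1) scale and 26.1% with raw library sizes, where the median over all genes moved to -0.17, -0.16 and -0.27 (log2 fold change). The calls of Oxct1 and Acat1 and their directions held in each of these settings.

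Slc16a1 (gene 20501, chromosome 3, 104638664 to 104658462, plus strand, 5 exons), a proton-linked carrier of lactate, pyruvate and ketone bodies, differed between the FKO libraries. It was at 85.8 and 159.8 CPM in FKO, against 78.9, 53.5 and 80.7 CPM in f/f. FKO replicate 1 lay just above the highest f/f library on the CPM scale and below it on the FPKM scale, so the separation of the groups depends on scaling. The FKO mean was 123 ± 52.3 CPM (SD, n = 2) and the f/f mean 71.0 ± 15.2 CPM (SD, n = 3). The log2 fold change was 0.79 (SE 0.29), short of the threshold in edgeR (adjusted p = 0.0883) and past it in DESeq2 (adjusted p = 0.0355), which called 28.4% of the genes it tested. The estimate rested on FKO replicate 2, since it was 0.28 without that library (edgeR adjusted p = 0.60) and 1.17 without FKO replicate 1 (0.0577).

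Other monocarboxylate transporters moved in both directions. Slc16a7 (MCT2), a high-affinity carrier, was at 89.5 and 72.7 CPM in FKO, against 44.9, 31.6 and 24.6 CPM in f/f, and rose 2.41-fold (log2 fold change 1.27, SE 0.25, edgeR adjusted p = 0.0139). Slc16a3 (MCT4), a lactate exporter of glycolytic cells, was at 0.622 and 0.499 CPM in FKO, against 1.60, 1.82 and 2.45 CPM in f/f, and fell 3.48-fold (edgeR adjusted p = 0.016). Its counts were low, at 28 and 21 in FKO and 72 to 157 in f/f. Slc16a6, which exports ketone bodies from zebrafish liver, was at 8.96 and 11.6 CPM in FKO, against 21.3, 13.6 and 19.7 CPM in f/f, and fell 1.77-fold (edgeR adjusted p = 0.0435). It overlaps Arsg and other genes of the table, which can share its counts. Several markers of other cells were also lower in FKO, and any link of them to Slc16a3 or Slc16a6 was not tested. Slc16a8 stayed below 1 CPM and did not pass (log2 fold change -1.04, edgeR adjusted p = 0.264), and the sodium-coupled carriers Slc5a8 and Slc5a12 had 0 counts in all 5 libraries.

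Of the helper proteins that carry these transporters to the membrane, Bsg (basigin), the partner of Slc16a1, was at 385 and 402 CPM in FKO and 319, 299 and 354 CPM in f/f, a log2 fold change of 0.28 that did not pass (edgeR adjusted p = 0.194). Emb (embigin), the partner of Slc16a7, was at 16.9 and 24.9 CPM in FKO and 13.7, 8.72 and 12.5 CPM in f/f, and rose 1.80-fold (edgeR adjusted p = 0.045). This call was lost in 12 of 15 alternatives, including the fits without each of the 5 libraries in turn (edgeR adjusted p = 0.0733 and 0.300 without FKO replicates 1 and 2, and 0.0502, 0.0858 and 0.0746 without f/f replicates 1 to 3). The call of Slc16a6 ended without FKO replicate 1 or 2 (0.267 and 0.103) and without f/f replicate 1 or 3 (0.0982 and 0.0891). The call of Slc16a7 ended without FKO replicate 1 (0.0915), and that of Slc16a3 without FKO replicate 1 or 2 (0.0818 and 0.106). The 5 Slc16 genes together summed to 52.3 and 63.0 FPKM in FKO, against 43.3, 30.0 and 37.9 FPKM in f/f. Slc16a1 made up 32.9% and 52.1% of that sum in FKO and 41.9%, 41.0% and 53.1% in f/f, which overlapped, whereas the share of Slc16a6 was 3.66% and 4.03% in FKO and 12.0%, 11.1% and 13.8% in f/f.

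**Figure D2:**
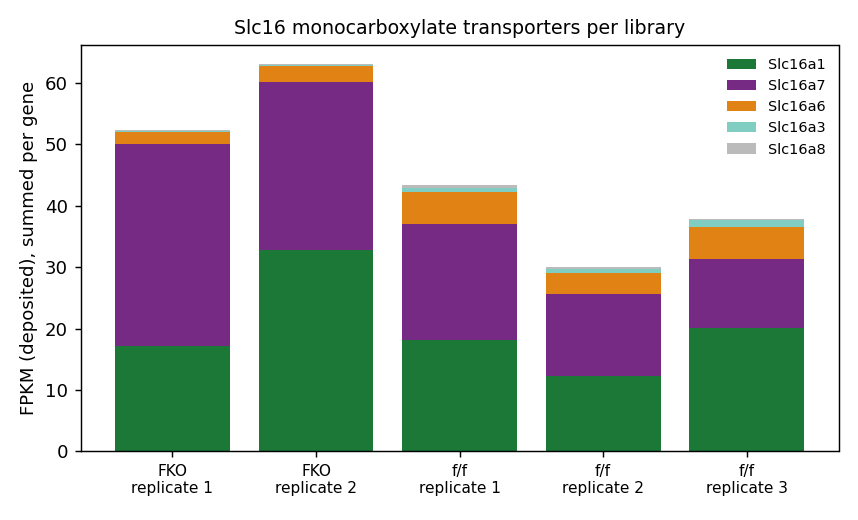
Deposited FPKM of 5 Slc16 monocarboxylate transporter genes stacked for each library, FKO replicates on the left and f/f replicates on the right. Slc16a1 and Slc16a7 make up most of the sum in all 5 libraries, and the sum is above 50 FPKM in both FKO libraries and below 44 FPKM in the f/f libraries.

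The β-hydroxybutyrate dehydrogenases were close to the limit of detection. Bdh1 (gene 71911, chromosome 16, 31422297 to 31458901, plus strand), the mitochondrial enzyme, had 0 and 7 counts in FKO and 7, 2 and 8 counts in f/f, and did not pass the filter on low counts. Of its 2 RefSeq transcripts, NM_175177 had 0 counts in every library and all the counts belonged to NM_001122683, which starts downstream. A count of 0 allows up to 3 counts, or 0.0526 to 0.0688 CPM at these depths. The ratio of summed Bdh1 counts per library size, FKO over f/f, was 0.677, with a 95% exact interval of 0.237 to 1.72 that covers counting error only, so no difference was detectable at this depth.

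Bdh2 (gene 69772, chromosome 3, 135281221 to 135304425, plus strand), a cytosolic relative of the same dehydrogenase superfamily that is also linked to a mammalian siderophore, had few counts in either group and fewer in FKO. It had 4 and 0 counts in FKO, against 29, 34 and 48 counts in f/f. The FKO libraries lay below every f/f library, at 0.0889 and 0 CPM against 0.643, 0.578 and 0.750 CPM. The ratio of summed counts per library size was 0.0593 (95% exact interval 0.0159 to 0.156, counting error only). Bdh2 passed the filter through its f/f libraries alone, so a gene like it had to differ to be tested, and its edgeR adjusted p of 0.0234 is given as a description. A stricter filter removed it, and without FKO replicate 2, which had 0 counts, the call ended (edgeR adjusted p = 0.0934). Its fitted log2 fold change of -3.78 (SE 0.89) depends on the prior count. With 4 counts in FKO, all of NM_001172055, the mix of its 2 transcripts could not be compared, and the test of transcript use (edgeR diffSpliceDGE), which called 1.95% of 3997 genes, says nothing of it. In the same libraries the median log2 fold changes of macrophage, mesothelial and fibroblast markers were -1.50, -2.14 and -1.13. Those of endothelial, mural, lymphocyte and adipocyte markers were -0.21, -0.53, -0.56 and 0.45. Any link of these markers to Bdh2 was not tested.

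All 3 cytosolic genes that make or use acetoacetyl-CoA rose, beside 11.9% of all genes tested that were called higher. Aacs, which activates acetoacetate for lipid synthesis, was at 397 and 427 CPM in FKO, against 202, 165 and 151 CPM in f/f, and rose 2.38-fold (edgeR adjusted p = 0.00398). Acat2, the cytosolic thiolase, was at 156 and 160.3 CPM in FKO, against 81.6, 61.5 and 74.0 CPM in f/f, and rose 2.18-fold (edgeR adjusted p = 0.00464). Hmgcs1, the cytosolic synthase of the cholesterol pathway, rose 1.98-fold (edgeR adjusted p = 0.00464), with a call that ended without FKO replicate 2 (0.0529). The FPKM ratio of Oxct1 to Aacs was 2.32 and 2.18 in FKO, against 2.48, 2.93 and 2.74 in f/f, with every FKO value below every f/f value. The ratio of Acat1 to Acat2 was 1.99 and 2.070 in FKO and 2.62, 2.85 and 2.068 in f/f, which overlapped by a small margin. The lyase gene Hmgcll1 had 0 counts throughout. The testis paralogs Oxct2a and Oxct2b had 3 and 6 counts in f/f replicate 1 and 0 counts in the other 4 libraries.

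Of the receptors, Hcar2, which binds β-hydroxybutyrate and restrains lipolysis in adipocytes, was at 161 and 98.6 CPM in FKO, against 83.1, 41.3 and 41.0 CPM in f/f. It rose 2.36-fold (log2 fold change 1.24, SE 0.36, edgeR adjusted p = 0.0433), but 8 of 15 alternatives lost the call, including the fits without FKO replicate 1 or 2 (0.261 and 0.0666) and without f/f replicate 2 or 3 (0.108 and 0.0998). Ffar3, which also senses ketone bodies, had 0 counts in every library.

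Among regulators of ketone body and fatty acid genes, 3 of 5 rose and 0 fell. Over all genes tested, the shares were 11.9% and 13.4%. Ppargc1a, a coactivator of mitochondrial biogenesis, was at 29.9 and 31.1 CPM in FKO, against 8.16, 6.45 and 3.83 CPM in f/f (log2 fold change 2.32, edgeR adjusted p = 0.00335). Esrra, the nuclear receptor that it activates, was at 97.3 and 81.6 CPM in FKO, against 20.5, 30.2 and 23.8 CPM in f/f (1.85, edgeR adjusted p = 0.00195), and it overlaps Trmt112. Ppara, the receptor that drives ketogenesis in liver, was at 44.8 and 45.3 CPM in FKO, against 24.3, 19.1 and 11.02 CPM in f/f (1.31, edgeR adjusted p = 0.0205), with a call that ended without FKO replicate 1 or 2 or f/f replicate 2 (0.0924, 0.0883 and 0.0522). The hormone Fgf21 was at 0.756 and 1.62 CPM in FKO, against 3.08, 2.13 and 3.23 CPM in f/f, a log2 fold change of -1.25 that fell short in edgeR (adjusted p = 0.0654). It passed in DESeq2 (0.0269), in edgeR with raw library sizes (0.0455) and in limma on log2(FPKM + 1) and log2(FPKM + 0.1) (0.0295 and 0.0277). The mitochondrial deacylase Sirt3 had a log2 fold change of 0.19 (edgeR adjusted p = 0.468), which became -0.028 with library size alone.

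Counted together, 15 of the 21 other ketone body genes analysed were tested, of which 9 rose, 2 fell and 4 did not pass, with a median log2 fold change of 0.99 beside -0.047 over all genes tested. Over all genes tested, 11.9% were called higher and 13.4% lower. Without FKO replicate 1 or 2, fewer rises and falls were called in the list, and fewer genes were called over all genes as well. The list mixes enzymes, transport and control, and its genes moved in both directions within transport.

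**Figure D3:**
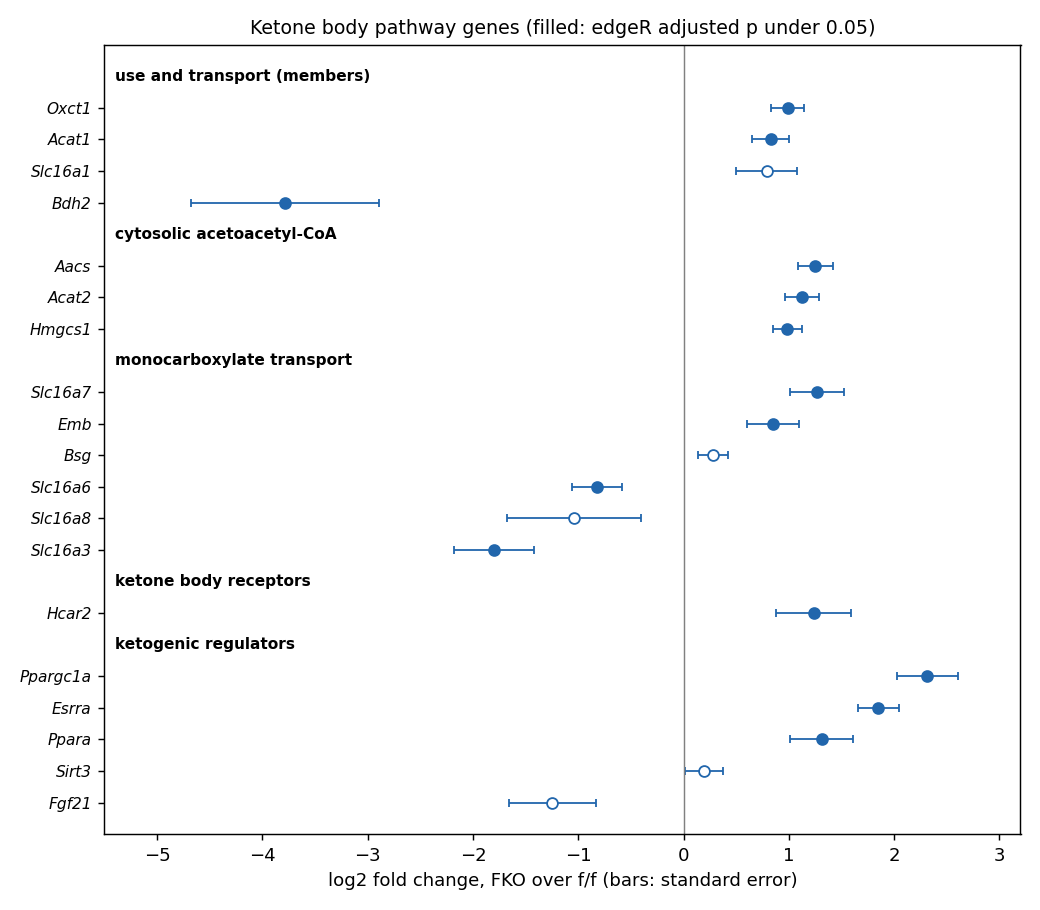
Log2 fold change of FKO over f/f with its standard error for each tested gene of the pathway, grouped by role, where filled points have an edgeR adjusted p under 0.05. Oxct1, Acat1 and the cytosolic genes lie close together near 1, whereas Bdh2, Slc16a3, Fgf21, Slc16a8 and Slc16a6 lie below 0. Fgf21 and Slc16a8 were not called, and Bdh2 passed the filter on low counts through its f/f libraries alone.

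Oxct1 and Acat1 were set beside pathways that feed on or supply the same acetyl-CoA. The shares called over all genes tested were 11.9% higher and 13.4% lower. Of 15 genes of mitochondrial β-oxidation, 13 rose and 0 fell, with a median log2 fold change of 1.01. Hadha of the trifunctional protein, the highest of that list, rose 3.48-fold. Of 16 genes of the TCA cycle, 14 rose and 0 fell, with a median of 1.01, and Mdh2, mitochondrial malate dehydrogenase, rose 2.52-fold. Of 22 genes of branched-chain amino acid breakdown, which shares Acat1, 7 rose, 1 fell and 14 did not pass. Their median was 0.45, in a range of -1.41 to 1.53. Bcat2, the mitochondrial aminotransferase and the highest of that list, rose 2.89-fold. The values of Oxct1 (0.99) and Acat1 (0.83) thus lay within the range of the β-oxidation list, 0.34 to 1.80, and of the TCA list, -0.27 to 1.47. These lists share all 5 libraries with the members, and the median of macrophage markers in them was -1.50 and that of adipocyte markers 0.45. Any link of these markers to the lists was not tested.

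Within a library, the weight of Oxct1 beside the TCA list overlapped between groups, whereas that of Acat1 was lower in FKO. As a share of the summed FPKM of the TCA list, Oxct1 was 6.72% and 7.16% in FKO, against 6.51%, 8.08% and 7.45% in f/f, which overlapped. Acat1 was 3.45% and 3.90% of that sum in FKO, against 4.24%, 4.47% and 4.20% in f/f, without overlap. Beside the β-oxidation list, Oxct1 was 6.45% and 5.82% in FKO, against 5.91%, 7.06% and 5.63% in f/f, and Acat1 was 3.32% and 3.17% in FKO, against 3.85%, 3.91% and 3.17% in f/f. The mRNA of citrate synthase (Cs) had the largest log2 fold change of the TCA list, 1.47. The FPKM ratio of Oxct1 to Cs was 0.533 and 0.605 in FKO and 0.662, 0.815 and 0.998 in f/f. The FPKM ratio of Oxct1 to Acat1 was 1.95 and 1.84 in FKO, against 1.54, 1.81 and 1.77 in f/f, a narrow separation. These shares and ratios are descriptions with no test.

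**Figure D4:**
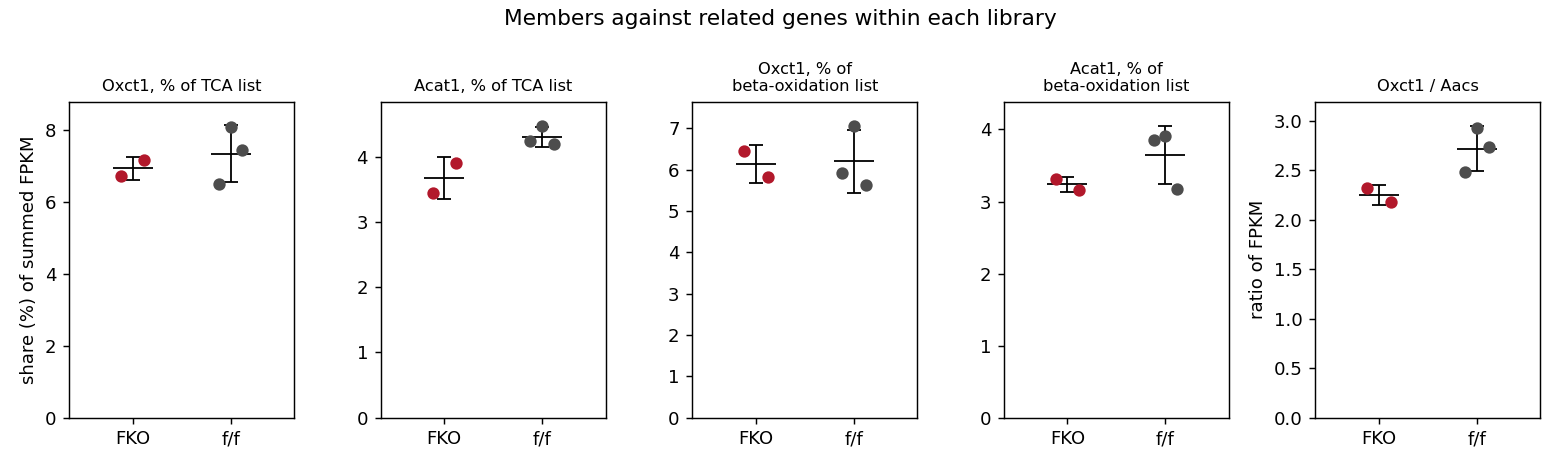
FPKM of Oxct1 and Acat1 as a percentage of the summed FPKM of the TCA cycle and β-oxidation lists, and the FPKM ratio of Oxct1 to Aacs, in each FKO library (red) and f/f library (grey) with mean and SD. The shares of Oxct1 overlap between groups, the share of Acat1 in the TCA list is lower in FKO, and the ratio of Oxct1 to Aacs is 2.18 and 2.32 in the FKO libraries and at least 2.48 in f/f.

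**Figure D5:**
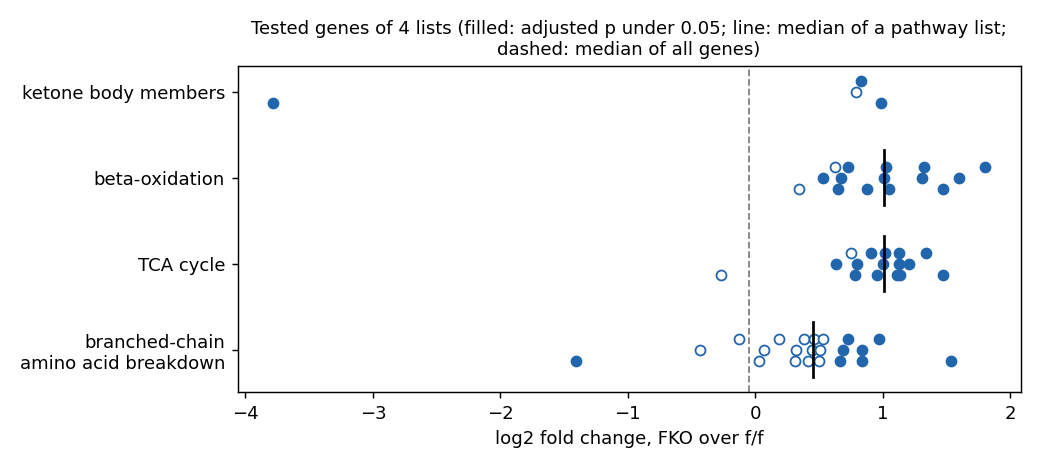
Log2 fold change of FKO over f/f for the tested ketone body members and for 3 related pathways, with filled points for an edgeR adjusted p under 0.05, a line at each pathway's median and a dashed line at the median of all genes. Oxct1, Acat1 and Slc16a1 lie among the β-oxidation and TCA cycle genes, and the fitted value of Bdh2, which rests on 4 and 0 counts in FKO and depends on the prior count, lies below 0.

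The genes whose pattern over the 5 libraries was most like that of each member were found by the root mean square difference of centred log2 CPM. For Oxct1 these were Letm1, an ion exchanger of the inner mitochondrial membrane, Nhsl2, and Slc25a44, a mitochondrial carrier of branched-chain amino acids, with differences of 0.027, 0.041 and 0.042. Letm1 was at 166 and 167 CPM in FKO, against 88.4, 90.0 and 75.8 CPM in f/f. For Acat1 they were the lysophospholipid acyltransferase Lpcat3, the ubiquitin ligase Rnf115 and the methionine sulfoxide reductase Msrb1 (0.033, 0.040 and 0.042). Nearest to Slc16a1 was Emb at 0.13, followed by Vopp1 at 0.13 and Alas1, the first enzyme of haem synthesis, at 0.17. Like Slc16a1, Alas1 differed between the FKO libraries, at 362 and 733 CPM, against 323, 271 and 287 CPM in f/f. For Bdh2, whose counts are low, the nearest were Retnla, Ankrd29 and Macrod1, at larger differences of 0.34 to 0.46.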

How the data were processed

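The authors deposited 1 table of RefSeq transcripts for the 5 libraries. Per the file headers it holds read counts, which are whole numbers without scaling and were treated here as estimated counts. That they are estimates is inferred, because they behave like abundance estimates rounded up where reads are few. Per the file headers it also holds FPKM, a value per transcript length and library size. The submitters' processing notes name HISAT2 2.1.0, HISAT, Bowtie2, StringTie 1.3.4d and mm10, without their roles. Strand use in counting is not given in the sources used here. Of 36780 rows, 1 names no gene and was left out, and 0 columns of sample values went unused. Sample descriptions tied columns to samples, and titles gave the groups.

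Counts were summed per gene identifier and tested in R 4.3.3 with edgeR 4.0.16 (quasi-likelihood test, TMM, filterByExpr, genotype as the sole term, all 5 libraries) at a Benjamini-Hochberg adjusted p of 0.05 over all genes. Standard errors are the log2 fold change over the square root of F. No pair of libraries agreed within sampling noise (median chi-square per gene of at least 3.71). The common coefficient of variation was 23%. Alternatives were RLE, upper-quartile and no scaling factors, no filter, a stricter filter (10 counts and 1 CPM), a replicate block, each library left out, DESeq2 1.42.0, limma-voom (limma 3.58.1), and limma on log2(FPKM + 1) and log2(FPKM + 0.1) for genes with a mean of at least 0.1 FPKM.

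Both the gene test and the test of transcript use were tested on simulated data with known changes. The gene test missed most changes of 2-fold or less there, so a gene without a call is not shown to be unchanged. In a single simulated run, the share of false calls of the test of transcript use was above its threshold.

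The members and gene lists were chosen with earlier results of these data known. Named genes are all members, all genes of the other ketone body list, up to 2 genes with the smallest p per comparison list, and the 3 genes nearest in pattern to each member among genes averaging 10 CPM or more, without gene models. Some genes of these lists are not reported here and were left out of the list counts and sums. Promoter sequences are from RefSeq (GRCm38.p6), and exon numbers and strands from GENCODE M21 on the same assembly as mm10.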

Additional observations from a re-analysis of the deposited data

How the results depend on the processing

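Low counts limit what can be said of Bdh1 and Bdh2, and every comparison rests on 2 FKO libraries. Oxct1 and Acat1 kept their direction in all 15 alternatives and their calls in 13, with log2 fold changes of 0.77 to 1.06 and 0.61 to 0.98. With each library left out in turn, the values lay between 0.91 and 1.06 for Oxct1, between 0.72 and 0.98 for Acat1, between -8.11 and -2.85 for Bdh2 and between 0.28 and 1.17 for Slc16a1. The number of members called higher lay between 0 and 2 and the number called lower between 0 and 1 in these fits, and for the other ketone body genes between 5 and 8 were higher and between 0 and 2 lower. The stricter filter removed Bdh2, which left 0 members called lower. Slc16a1 was called only by DESeq2 (log2 fold change 0.80, adjusted p = 0.0355). Sirt3, which was not called, had values below 0 with library size alone (-0.028), on the log2(FPKM + 1) scale (-0.0095) and on the log2(FPKM + 0.1) scale (-0.0099), where the median of all genes was also lower. Over all genes, 909 were called when FKO replicate 1 was left out and 1022 when FKO replicate 2 was, against 3674 with all libraries. The cause of these changes was not tested. The replicate numbers 1 and 2 are shared by the groups, but nothing in the labels says that they pair libraries. The deviations of same-numbered libraries correlated at 0.091 and -0.13, and those of differently numbered libraries at values between -0.20 and 0.20. With only 2 FKO libraries, their deviations from the group mean mirror each other, so these correlations cannot show whether libraries are paired. With the replicate number as a block, Oxct1 was at 0.91, Acat1 at 0.73, Bdh2 at -3.82 and Slc16a1 at 0.85 (log2 fold changes), with 2 members called higher and 1 lower, with 8 higher and 1 lower of the other ketone body genes (also 1 lower with limma-voom, against 2), and transcript use was called in 4 genes instead of 78.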
